A study of Mus musculus with 27 samples.

Results

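The dual-specificity phosphatase genes were taken as every probe set whose platform gene symbol starts with Dusp and a digit. This gave 13 of the 12488 probe sets, for 9 of the 8252 genes named. Dusp1, Dusp2, Dusp11, Dusp12 and Dusp19 had a single probe set, and Dusp6, Dusp8, Dusp9 and Dusp16 had a pair each. Not all of these genes encode MAP kinase phosphatases: Dusp11, Dusp12 and Dusp19 belong to the atypical enzymes, which lack the domain that docks MAP kinases. RNA came from NIH/3T3, a long-established fibroblast line derived from mouse embryos, and was read on 27 arrays. All cultures were stepped down in serum, received 15 µM forskolin for 2 h in serum-free medium and then stayed in serum-free medium without the drug. Forskolin activates adenylyl cyclase and so raises cyclic AMP. Flasks were harvested at the end of the pulse (0 h) and every 6 h to 48 h in each of 3 experiments, so each of the 9 time points had 3 arrays, and the series asked which transcripts follow a circadian course. Unpulsed cultures were not analysed here, so every change below is a change since the end of the pulse.

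MAP kinases (ERK, JNK and p38) are switched on when a kinase adds phosphate to a threonine and a tyrosine close to each other, and the MAP kinase phosphatases remove both. Several of these phosphatase genes are themselves turned on by the kinases they shut off, which makes them feedback brakes and brief markers of signalling. Dusp1 and Dusp2 encode nuclear, inducible enzymes, Dusp6 and Dusp9 cytoplasmic enzymes that prefer ERK, and Dusp8 and Dusp16 enzymes that prefer JNK and p38. In fibroblasts Dusp1 and Dusp6 are known as early response genes to serum and growth factors, and Dusp1 is also a target of cyclic AMP through the factor CREB.

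The 250 bases before the RefSeq start of Dusp1 and of Dusp6 (build GRCm38.p6) are shown because both genes had a like course on these arrays while the cyclic AMP response element TGACGTCA, the site that CREB binds, was found in only the first of them. Capitals mark TGACGTCA and its shorter core TGACG on either strand, and the core lies within the full element on both strands.
Dusp1: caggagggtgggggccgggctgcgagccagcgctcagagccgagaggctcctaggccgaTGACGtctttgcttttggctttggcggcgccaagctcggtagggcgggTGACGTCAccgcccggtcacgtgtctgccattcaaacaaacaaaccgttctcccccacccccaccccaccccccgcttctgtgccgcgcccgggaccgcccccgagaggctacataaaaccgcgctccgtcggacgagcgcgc
Dusp6: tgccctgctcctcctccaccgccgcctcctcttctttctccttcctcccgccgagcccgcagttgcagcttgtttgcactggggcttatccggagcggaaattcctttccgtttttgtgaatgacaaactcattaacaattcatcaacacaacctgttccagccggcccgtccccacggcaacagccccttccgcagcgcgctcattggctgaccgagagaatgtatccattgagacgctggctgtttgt
The Dusp1 stretch is chr17:26508473-26508722 on the minus strand, and the Dusp6 stretch is chr10:99262981-99263230 on the plus strand. In Dusp1 the full element began 143 bases before the start and a further TGACG began 191 bases before it. Of the 7 member genes with a RefSeq window, 2 held the full element, Dusp1 and Dusp8, against 1.55% of all 32851 windows of this length. The shorter core was found in Dusp1, Dusp8, Dusp11 and Dusp16, 4 of the 7, against 17.8% of windows. The ETS motif CCGGAAGT and the CArG box of serum response factor (with AT-rich core, 1 spelling searched) were found in 0 of the 7, against 2.88% and 0.0609% of windows. A gene was counted if any of its windows held the motif, whereas the percentages are shares of single windows. A match is a description of the letters and not a measured binding site.

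Of the 13 probe sets, 7 passed the filter on dim values, which kept 7453 probe sets with a mean normalized log2 intensity of at least 6.77. They were those of Dusp1, Dusp2, Dusp11, Dusp12 and Dusp19 and the brighter probe sets of Dusp6 and Dusp16. The other 6 lay near the bottom of the arrays. Both Dusp8 probe sets ranged from 6.7 to 80.4 in deposited intensity over the 27 arrays, both of Dusp9 from 2.4 to 95.3, and the dimmer one of Dusp16 from 5.6 to 105.1. The dimmer probe set of Dusp6 read between 1.3 and 47.2, where its partner read between 141.4 and 1316.7, and its 3 arrays at 0 h read 11.6, 18.5 and 1.3. It therefore did not show the course described below for the brighter one. Detection calls were not used here, so these 6 probe sets could not be told from background and say nothing about Dusp8 or Dusp9. Probe sets of different genes bind with different strength, so their intensities give no order of the genes.

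**Figure D1:**
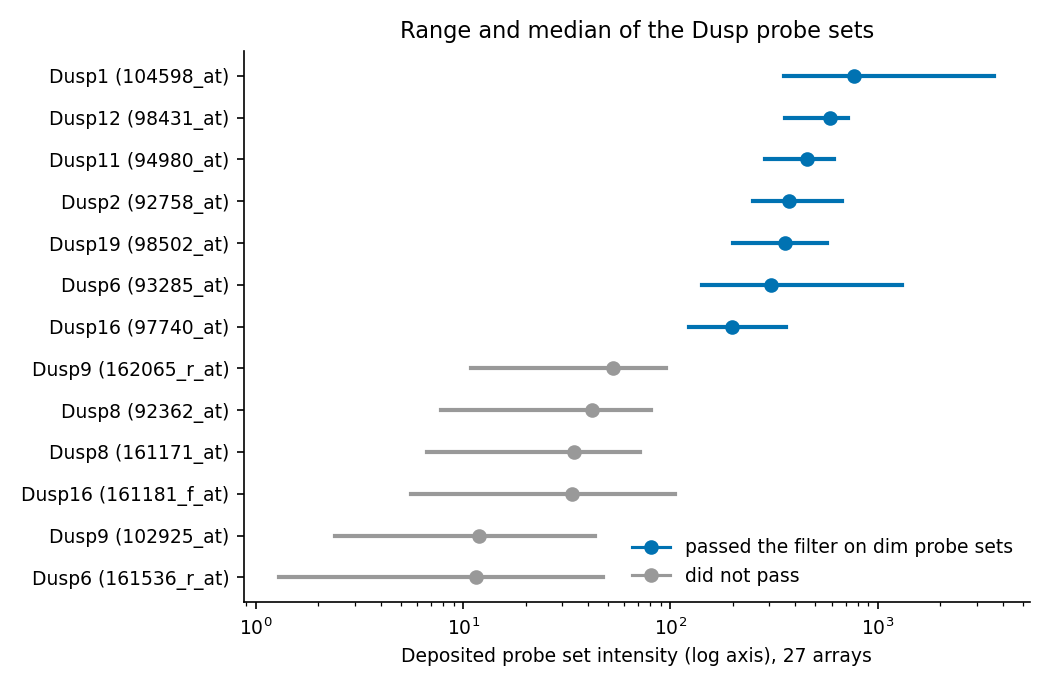
Lowest, median and highest deposited intensity of each of the 13 Dusp probe sets over the 27 arrays, on a log axis. The 7 probe sets that passed the filter on dim values, in blue, had medians from 198.1 to 769.3, and the 6 that did not pass, in grey, had medians from 11.6 to 53.0.

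The labelled cells showed fibroblast markers, all 10 of which passed the filter, with Col1a1, a collagen chain of fibroblasts, between 19990 and 29913, although the probe set of Vim, a filament gene of such cells, was dim with a median of 132.5. The filter kept 7453 of all 12488 probe sets, so passing it does not by itself show that a gene was expressed. Markers of cell types that the line should lack also passed in part, 4 of 7 for muscle, 3 of 5 for neurons and glia, 2 of 5 for macrophages, 1 of 4 for epithelium and 1 of 4 for endothelium. Among those that passed, Cdh1 of epithelium, Cd68 of macrophages and Myod1 of muscle had medians of 491.9, 254.5 and 252.5. Among those that did not, Ptprc of leukocytes, Lyz2 of macrophages and Epcam of epithelium had medians of 9.2, 5.9 and 6.2. Experiment 1 stood apart from the others on the first principal component of the tested probe sets, which held 28.7% of the variance: its arrays scored from 12.1 to 31.7, and those of the other experiments from -24.1 to -0.31. The 3′ to 5′ ratio of the actin control, a measure of RNA integrity, spanned 1.44 to 1.73 among the arrays of experiment 1 and 1.32 to 1.73 among those of experiment 3. Experiment 2 had the lower span of 1.11 to 1.35. In experiment 1 the clock output gene Tef had log2 values of 9.48 (18 h) and 11.45 (30 h). The other experiments ran the opposite way, from 11.08 to 9.82 and from 11.02 to 10.40, so tests over the course were also run without those arrays. Whether the 18 h and 30 h labels of experiment 1 are exchanged was not tested, and its values at these times are given as labelled.

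Dusp1 dropped to its lowest level at 6 h in all 3 experiments and climbed to its highest at 42 h or 48 h. In experiment 1 its deposited intensity, in order of time from 0 h to 48 h, was 2053.5, 353.5, 629.6, 1095.4, 769.3, 699.0, 1382.9, 3639.4 and 2404.9. In experiment 2 the same times gave 706.3, 382.1, 555.5, 827.5, 839.7, 617.7, 709.1, 992.6 and 867.4. In experiment 3 they gave 785.7, 421.1, 584.9, 737.7, 667.8, 635.2, 872.5, 1030.1 and 1825.5. The 3 arrays at 6 h lay below every other array, and experiment 1 read far above the others at 0 h and 42 h. By mean log2 intensity (± SD, n = 3) the times ranked upward as 6 h (8.63 ± 0.14), 12 h (9.24 ± 0.08), 30 h (9.38 ± 0.07), 24 h (9.57 ± 0.16), 18 h (9.81 ± 0.28), 36 h (9.93 ± 0.52), 0 h (10.06 ± 0.82), 42 h (10.61 ± 1.08) and 48 h (10.62 ± 0.77). Neighbours in that order differed by less than the sum of their SDs, except 6 h and 12 h, whose difference of 0.62 ± 0.42 (SE) did not pass (adjusted p = 0.9985, with 0.0134% of all probe sets called).

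Dusp6 followed a like course with less separation between times. In experiment 1 its brighter probe set read, from 0 h to 48 h, 1316.7, 187.5, 292.1, 304.0, 266.4, 190.9, 373.4, 889.1 and 687.5. In experiment 2 the values were 354.6, 169.9, 293.6, 342.7, 400.4, 421.5, 467.9, 540.7 and 595.6. In experiment 3 they were 245.3, 141.4, 225.2, 232.5, 205.0, 154.9, 300.9, 321.2 and 452.7. Experiment 2 climbed without a step down after 6 h, whereas experiment 3, and experiment 1 as labelled, had a second low point at 30 h that nearly reached the 6 h level. With the 18 h and 30 h labels of experiment 1 exchanged, its low point would lie at 18 h. Mean log2 intensity (± SD, n = 3) ranked upward as 6 h (7.49 ± 0.17), 30 h (7.91 ± 0.76), 12 h (8.13 ± 0.17), 24 h (8.20 ± 0.46), 18 h (8.24 ± 0.22), 36 h (8.58 ± 0.28), 0 h (9.01 ± 1.24), 42 h (9.10 ± 0.71) and 48 h (9.18 ± 0.29), and no neighbours in this order differed by more than the sum of their SDs.

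**Figure D2:**
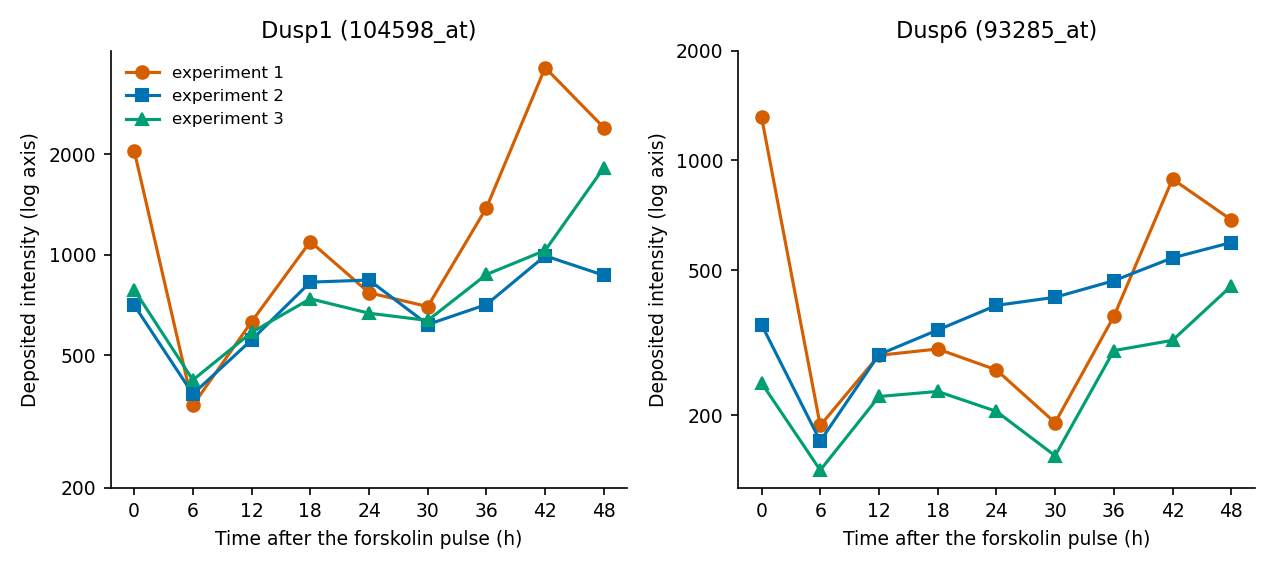
Deposited intensity (log axis) of Dusp1 and of the brighter Dusp6 probe set against time after the pulse, with a line for each of the 3 experiments. Both genes dipped at 6 h in every experiment and ended high, and experiment 1 was highest at 0 h and 42 h.

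The first comparison asked what happened in the 6 h after the pulse. Dusp1 fell by 1.43 ± 0.42 (log2 difference ± SE, limma, adjusted p = 0.0419), a 2.70-fold lower level, and Dusp6 by 1.52 ± 0.44 (adjusted p = 0.0401), a 2.87-fold lower level. The change of Dusp1 was -2.52, -0.89 and -0.88 in experiments 1 to 3, and that of Dusp6 was -2.76, -1.06 and -0.74. Every experiment thus showed the direction, but experiment 1 had more than the others. A fit with the experiment as a block takes the differences between experiments out of the spread. With it the adjusted p by limma was 0.00273 for Dusp1 and 0.00428 for Dusp6, where 6.74% of all probe sets fell. In total RNA, fewer cells with a transcript and less of it per cell cannot be told apart. The 2 genes were the only ones of the 7 tested members that fell, where 2.39% of all probe sets did, and also the only members whose 0 h and 6 h arrays did not overlap with 6 h the lower, where 10.3% of all probe sets showed this. The median change of the 7 tested members was -0.001, beside -0.004 for all probe sets. Without experiment 1 the change was -0.89 for Dusp1 (adjusted p = 0.0686) and -0.90 for Dusp6 (adjusted p = 0.281). Without experiment 2 it was -1.70 (adjusted p = 0.127) and -1.75 (adjusted p = 0.180), and without experiment 3 it was -1.71 (adjusted p = 0.263) and -1.91 (adjusted p = 0.103), so that none of these smaller fits called either gene.

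The other members had no called change at 6 h. Dusp2, the other nuclear inducible phosphatase, differed by -0.05 ± 0.23, Dusp16 by 0.12 ± 0.24, Dusp12, an atypical phosphatase with a zinc-binding domain, by 0.04 ± 0.23 and Dusp11, an atypical phosphatase that acts on RNA 5′ ends, by -0.00 ± 0.21. Dusp19, an atypical phosphatase of JNK pathway proteins, was at 0.49 ± 0.35 (adjusted p = 0.552). The span of about 2 SEs on each side of these values leaves room for changes of moderate size.

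Both genes had left their low point by the end of the course. At 48 h Dusp1 was higher than at 6 h by 1.99 ± 0.42 (adjusted p = 0.00899), a 3.97-fold difference, with 2.78, 1.14 and 2.05 in experiments 1 to 3. Dusp6 was higher by 1.69 ± 0.44 (adjusted p = 0.0322), a 3.22-fold difference, with 1.78, 1.72 and 1.56. For Dusp6 the 3 experiments differed little in this later rise (SD 0.12), unlike in the fall before it (SD 1.08). These were 2 of the 7 members called higher, where 1.56% of all probe sets were. With the block the adjusted p by limma was 0.000209 for Dusp1 and 0.00220 for Dusp6, where 6.79% of all probe sets were called higher. Without experiment 1 both calls held, with 1.59 for Dusp1 (adjusted p = 0.00431) and 1.64 for Dusp6 (adjusted p = 0.0401). Neither was called without experiment 2, at 2.42 (adjusted p = 0.0635) and 1.67 (adjusted p = 0.258), or without experiment 3, at 1.96 (adjusted p = 0.343) and 1.75 (adjusted p = 0.302).

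In the same fit the calls came late, although Dusp1 had begun to rise earlier. From 6 h to 18 h it changed by 1.63, 1.10 and 0.81 in experiments 1 to 3 as labelled. At 42 h Dusp1 exceeded its 6 h level by 1.98 ± 0.42 (adjusted p = 0.00931) and Dusp6 by 1.61 ± 0.44 (adjusted p = 0.0418), where 1.57% of probe sets were called higher. At 36 h Dusp1 was at 1.30 ± 0.42 (adjusted p = 0.111) and Dusp6 at 1.09 ± 0.44 (adjusted p = 0.230), so neither was called, where 0.738% of probe sets were called higher. With the experiment as a block, which removes the differences between experiments from the spread, Dusp1 was called higher at 36 h (adjusted p = 0.00938, where 4.59% of probe sets were) and already at 18 h, at 1.18 ± 0.32 (adjusted p = 0.0265, where 2.56% were). These comparisons at 18 h, 36 h and 42 h were chosen after the values were seen.

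Against the end of the pulse, no member was called at 24 h or 48 h by limma without the block, where 6.92% and 7.9% of all probe sets were. With the block Dusp11 was called lower at 48 h (adjusted p = 0.0185 by limma, where 9.07% of probe sets were). At an unadjusted p below 0.05 without the block there was 1 of 7 members at 24 h, Dusp16, where 18.4% of all probe sets were at that level. At 48 h there were 2 of 7, Dusp16 and Dusp11, where 19.6% were, so both counts lay near the background. At 24 h Dusp1 was at -0.49 ± 0.42 and Dusp6 at -0.81 ± 0.44, and at 48 h they were at 0.56 ± 0.42 and 0.17 ± 0.44. The experiments disagreed on the sign for Dusp6 at 48 h, with -0.98, 0.66 and 0.82. Dusp6 was called lower than at 0 h at 30 h with the block (-1.10 ± 0.36, adjusted p = 0.0342, where 7.85% of probe sets were called lower). There its change was -2.89, 0.21 and -0.63 in the 3 experiments, so experiment 1 had nearly all of it. The comparison at 30 h was not planned. A change from the state of untreated cells was not measured here.

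Over the 9 time points together, Dusp1 was the only member that varied in the limma F test, with 1.99 between its lowest and highest mean (adjusted p = 0.0301). That was 1 of 7, where 7.3% of all probe sets varied. With the experiment as a block 4 of 7 varied, where 26.4% of all did: Dusp1 (adjusted p = 0.000589), Dusp6 (adjusted p = 0.00586), Dusp11 (adjusted p = 0.0230) and Dusp19 (adjusted p = 0.0416). Dusp2, Dusp12 and Dusp16 varied in neither fit. Without experiment 2 and without experiment 3, 0 members were called in the fit without the block, and Dusp1 had an adjusted p = 0.156 and 0.676.

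Dusp11 drifted the other way. In experiment 1 its intensity ran from 617.9 at 0 h through 527.6, 560.8, 568.3, 565.6, 455.2, 386.2 and 503.3 to 455.0 at 48 h. In experiment 2 it went from 609.9 over 533.6, 581.0, 599.8, 536.3, 430.4, 404.6 and 446.3 to 369.5, and in experiment 3 from 366.0 over 536.5, 433.5, 438.6, 356.7, 400.5, 395.3 and 285.7 to 286.3. The level held until about 18 h in experiments 1 and 2 and was lower in all 3 experiments from 30 h on than at 6 h. From 6 h to 48 h it fell along a line by 0.38 ± 0.09 log2 units per day (adjusted p = 0.00966). At 48 h it was at -0.51 ± 0.21 against both 0 h and 6 h, which was called only with the block (-0.51 ± 0.15, adjusted p = 0.0185 against 0 h, where 9.07% of probe sets were called lower, and adjusted p = 0.0244 against 6 h, where 7.82% were).

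On that same line Dusp1 rose by 0.83 ± 0.17 per day (adjusted p = 0.00392) and Dusp6 by 0.72 ± 0.16 (adjusted p = 0.00655). So 2 of 7 members rose, where 2.83% of probe sets did, and 1 of 7 fell, where 3.3% did. The test asks only for a slope other than 0, so a step is called as well. Dusp2 was at 0.23 ± 0.10 (adjusted p = 0.216), Dusp16 at 0.07 ± 0.11 and Dusp12 at 0.08 ± 0.11. Without experiment 1 the slope of Dusp1 was 0.57 (adjusted p = 0.00659), and without experiment 3 it was 0.84 (adjusted p = 0.106). Dusp6 had 0.68 without experiment 2 (adjusted p = 0.0972) and 0.79 without experiment 3 (adjusted p = 0.0542), and Dusp11 -0.35 without experiment 2 (adjusted p = 0.169). Without the 18 h and 30 h arrays of experiment 1 all 3 calls held, at 0.87, 0.75 and -0.37 per day.

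Dusp19 was highest between 6 h and 18 h. Its intensity at 0 h was 264.0, 272.7 and 329.3 in experiments 1 to 3, at 12 h it was 439.5, 488.0 and 464.4, and at 48 h it was 259.1, 340.0 and 296.3. Experiment 1 read below the others from 6 h to 48 h. The change from 0 h to 12 h was 0.65 ± 0.35 without the block (adjusted p = 0.318) and 0.65 ± 0.18 with it (adjusted p = 0.0134), where 10.9% of probe sets were called higher. That comparison was not planned, and 0 h and 12 h had the lowest and highest mean of Dusp19. Its slope from 6 h on, -0.35 per day, was called with the block (± 0.08, adjusted p = 0.00487, where 9.02% of probe sets fell) and, in the fit without it, when experiment 1 was left out (-0.31, adjusted p = 0.0190). Dusp16 was higher at 48 h than at 0 h on every array, at 188.2, 122.9 and 182.2 against 362.9, 205.7 and 198.1. It was the 1 of 7 members whose arrays were apart in this direction, where 11.7% of all probe sets were, near the background. Its difference was 0.55 ± 0.24 (adjusted p = 0.190) and 0.55 ± 0.21 with the block (adjusted p = 0.0645), so it did not pass. Dusp2 ranged from 250.6 to 673.9, its highest array being that of experiment 2 at 36 h, and Dusp12 from 355.9 to 717.9, both without a called change.

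**Figure D3:**
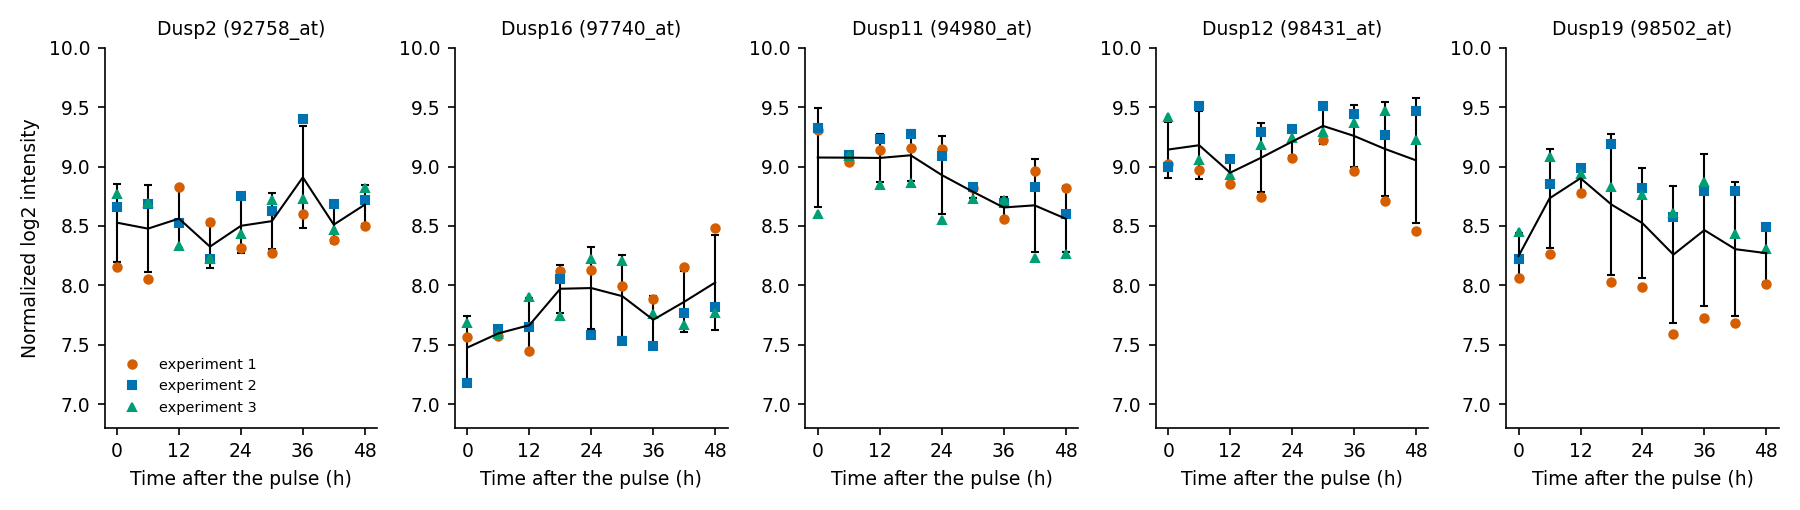
Normalized log2 intensity of Dusp2, Dusp16, Dusp11, Dusp12 and Dusp19 against time after the pulse, with a symbol for each of the 3 experiments and a black line for the mean ± SD. Dusp11 moved from 9.07 at 6 h to 8.56 at 48 h, Dusp19 peaked at 8.90 at 12 h, and the mean of each of the 5 stayed within 0.65 of its lowest value.

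The circadian question had no called answer for these genes. No member, and 0 of all 7453 probe sets, passed the limma test of a 24 h rhythm from 6 h to 48 h, with or without the block. Dusp1 had the largest amplitude of the members, 0.40 log2 units with a peak at 18.4 h (unadjusted p = 0.0225 by limma, 0.00486 with the block), and was the 1 of 7 members at an unadjusted p below 0.05, where 3.33% of all probe sets were. Dusp6 had 0.31 with its peak at 17.8 h (unadjusted p = 0.0602, 0.0144 with the block) and was at that level only with the block, where 10.5% of all probe sets were. The amplitudes of Dusp2, Dusp16, Dusp19, Dusp12 and Dusp11 were 0.17, 0.15, 0.10, 0.09 and 0.08. Dusp1 was higher at 18 h than at 12 h and 30 h in each experiment as labelled, and higher at 42 h than at 36 h. With the 18 h and 30 h labels of experiment 1 exchanged, 18 h would lie below 30 h there.

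After each experiment's mean was taken off, the log2 values of Dusp1 and Dusp6 correlated at r = 0.87 over the 27 arrays. Within experiments 1 to 3 the correlation was 0.87, 0.86 and 0.93. The means of the time points were not taken off, so the like course described above enters these values. No other pair of the 7 members exceeded 0.53, the value of Dusp11 and Dusp19, and Dusp1 with Dusp2 had 0.12. Among 6734 tested probe sets with 1 symbol, of other genes, Dusp6 was the third most like Dusp1, after Hk2, the hexokinase 2 gene, at 0.93 and Ier3, an immediate early gene, at 0.93, and before Atf3, a stress-induced factor, and Ifi202b at 0.86 each. The 5 most like Dusp6 were Hk2 at 0.91, Ier3 at 0.88, Wwtr1, which encodes the coactivator TAZ, at 0.88, Dusp1, and Ccl7, a chemokine, at 0.86. All these share the same arrays, and the same high arrays of experiment 1 enter each of them: the SD of Hk2 over the experiments was 1.19 at 0 h and 1.05 at 42 h, against 0.17 at 6 h. In experiments 2 and 3 the correlation with Hk2 was 0.90 and 0.87 for Dusp1 and 0.94 and 0.73 for Dusp6, and that of Dusp1 with Atf3 was 0.54 and 0.79.

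The other transcripts that cyclic AMP and ERK are known to drive give a frame for these courses. Of 11 cyclic AMP and CREB transcripts that passed the filter, from 15 on the array, 7 fell at 6 h and none rose, with a median of -1.15, where 2.39% of all probe sets fell and their median was -0.004. At 48 h, 8 of the 11 were lower than at 0 h, where 3.23% of probe sets were, with a median of -1.17. Cebpd, a transcription factor gene, fell by 1.76 ± 0.19 at 6 h and was still at -0.95 ± 0.19 at 48 h. Nfil3, a bZIP repressor of the clock output, was at -1.58 ± 0.35 and -1.80 ± 0.35, and Rgs2, a regulator of G protein signalling, at -1.22 ± 0.30 and -2.20 ± 0.30. Nr4a1 was at -1.58 ± 0.44 at 6 h and at -1.13 ± 0.44 at 48 h, where it was not called. Of the 11, 1 had a positive difference at 48 h. It was Per1, at -0.23 ± 0.38 and 0.57 ± 0.38, called at neither time. Dusp1, at -1.43 at 6 h and 0.56 at 48 h, was not lower at the end, and whether it differs from these genes was not tested. All these differences share the 0 h arrays.

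Of 14 ERK-driven transcripts that passed the filter, from 15 on the array, 2 fell and 1 rose at 6 h, with a median of -0.47, where 2.39% of probe sets fell and 3.7% rose. With the block 4 fell and 1 rose, where 6.74% of probe sets fell and 9.97% rose. Fosl1, an AP-1 subunit, fell by 2.97 ± 0.67, Phlda1 by 1.60 ± 0.33, and Klf6 rose by 1.09 ± 0.20. At 48 h none was lower than at 0 h and 2 were higher, where 3.23% and 4.67% of probe sets were. These were Klf6 at 1.38 ± 0.20 and Egr1, a zinc finger immediate early gene, at 1.07 ± 0.33. With the block 2 were lower and 5 higher, where 9.07% and 10.7% of probe sets were. Compared with 6 h, 13 of the 14 had a positive difference at 48 h and 1 was called, Ccnd1, the cyclin D1 gene, at 1.65 ± 0.36, where 1.56% of probe sets were called higher. With the block 5 were called, where 6.79% of probe sets were called higher. Ier3, among the genes most like both phosphatases, was at -1.06 ± 0.48 at 6 h and 0.46 ± 0.48 at 48 h, called at 6 h only with the block. The list held Fosb in common with the cyclic AMP list.

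Of 9 other negative regulators of ERK signalling that passed the filter, none was called at 6 h or 24 h by limma, with or without the block. As 6.09% of all probe sets were called at 6 h and 6.92% at 24 h without the block, a count of 0 of 9 is near the background. With the block 16.7% and 18.6% of all probe sets were called at these times. The median of the 9 regulators at 6 h was -0.05. Spry4, a Sprouty inhibitor, was at -0.01 ± 0.22 at 6 h and 0.14 ± 0.22 at 48 h, and the median at 48 h was -0.03. The member of smallest p at 6 h was Rasal1, a Ras GTPase activator, at -0.55 ± 0.40 (adjusted p = 0.549). At 48 h 1 was higher than at 0 h, where 4.67% of all probe sets were. It was Spred2, an inhibitor of Raf activation, at 0.76 ± 0.22 (adjusted p = 0.0308 by limma). At 24 h Spred2 was the one of smallest p, at 0.46 ± 0.22 (adjusted p = 0.264).

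**Figure D4:**
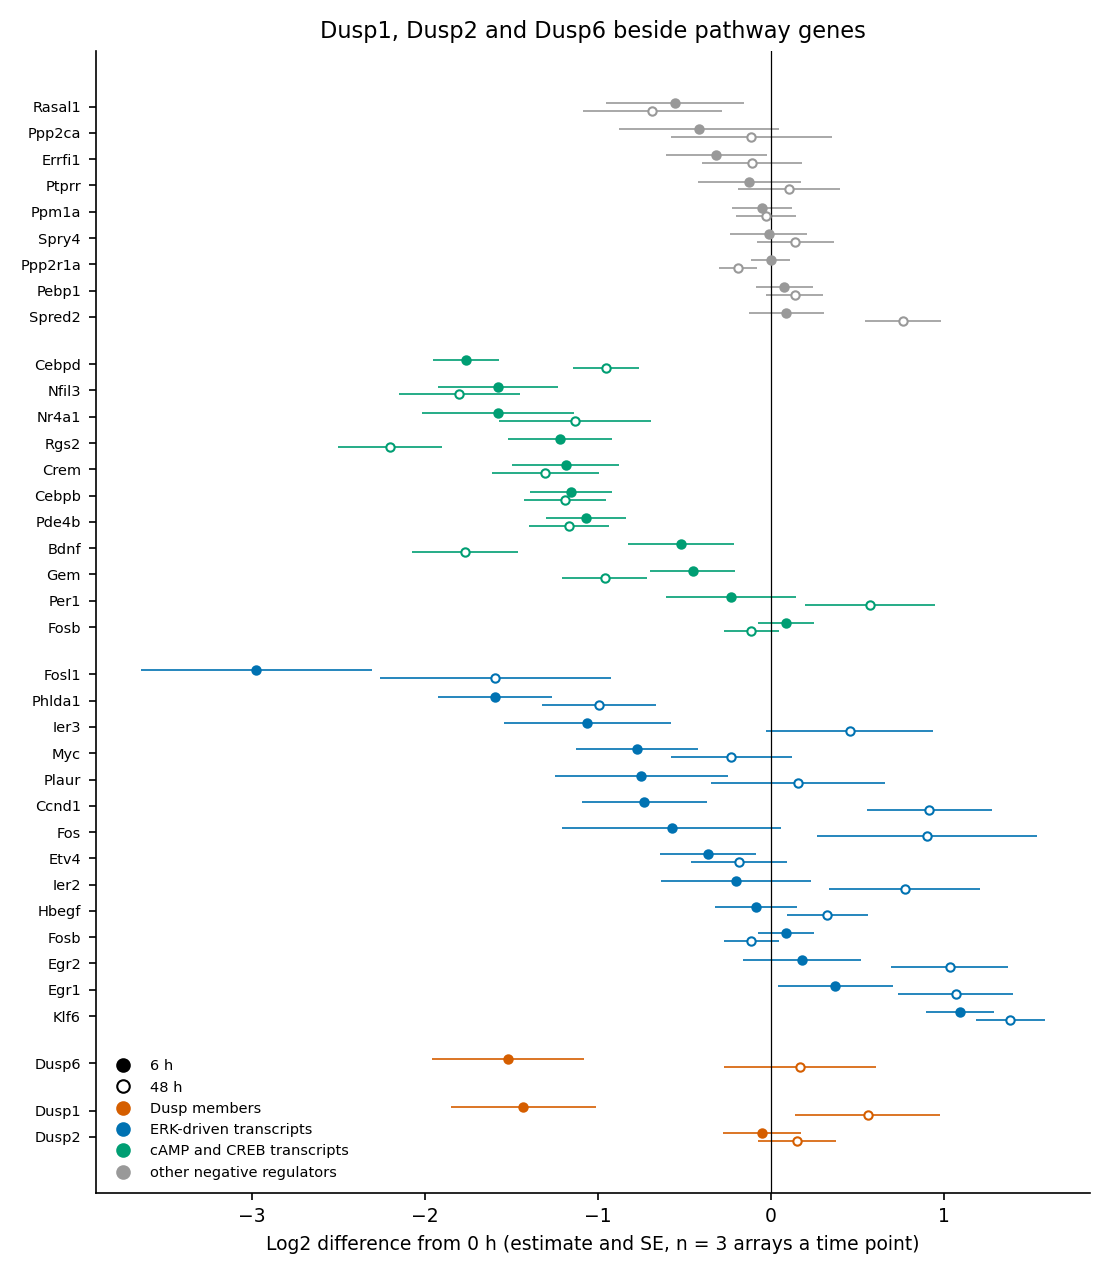
Log2 difference from 0 h (± SE) at 6 h, filled, and at 48 h, open, for Dusp1, Dusp2 and Dusp6 and for each gene that passed the filter of the ERK-driven, cyclic AMP and ERK-inhibitor lists. Dusp1 and Dusp6 moved from -1.43 and -1.52 at 6 h to 0.56 and 0.17 at 48 h, while 8 of the 11 cyclic AMP transcripts were lower at 48 h.

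The kinases upstream were measured as well. Of 7 MAP kinase genes that passed the filter, from 9 on the array, 1 rose at 6 h and 2 at 24 h and 48 h, where 3.7%, 4.08% and 4.67% of probe sets did: Mapk7, which encodes ERK5, was at 1.01 ± 0.23 at 6 h and 1.55 ± 0.23 at 24 h, and Mapk14, the p38 alpha gene, at 0.44 ± 0.13 at 24 h and 0.51 ± 0.13 at 48 h. Mapk8, the JNK1 gene, was at -0.56 ± 0.19 at 6 h and was called lower with the block only. Of 11 kinases above them that passed the filter, 2 rose and none fell at 6 h, where 3.7% and 2.39% of all probe sets did. They were Map2k6, which activates p38, at 1.16 ± 0.19 and Araf, a Raf kinase, at 0.55 ± 0.17. With the block 2 rose and 3 fell, where 9.97% of all probe sets rose and 6.74% fell. At 48 h only Ksr1, a scaffold of the ERK cascade, was called, at -1.05 ± 0.28, where 3.23% of all probe sets were lower. With the block 3 were lower, where 9.07% of all probe sets were. Of 11 genes of Ras activation that passed the filter, 2 rose at 6 h and 3 at 48 h, where 3.7% and 4.67% of all probe sets did. With the block 4 rose at 6 h and 5 at 48 h, where 9.97% and 10.7% of all probe sets rose. Fgfr1 was called lower at 6 h with the block only, where 6.74% of all probe sets fell. Nras had the largest called rise at 48 h, at 0.83 ± 0.18. Gab1, a docking protein, was at 0.77 ± 0.20 at 6 h and 0.78 ± 0.20 at 48 h. Pdgfra, a PDGF receptor gene, was at 0.54 ± 0.10 and 0.75 ± 0.10. Of 10 effectors of the MAP kinases that passed the filter, 1 fell at 6 h, where 2.39% of all probe sets did, against 3 with the block, where 6.74% did. At 48 h 2 rose and 1 fell, where 4.67% and 3.23% of all probe sets did. They were Jun, the AP-1 subunit, at 1.44 ± 0.35, the transcription factor gene Mef2a at 0.66 ± 0.20, and Mknk2 at -1.05 ± 0.27. Transcript levels do not show whether a kinase was active.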

How the data were processed

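NIH/3T3 RNA was measured on 27 Affymetrix mouse U74v2 arrays. The authors deposited 1 intensity per probe set and array on a linear scale, without naming the summary algorithm in the sources used here. Trimmed means (2% off each end) of the arrays were 500.28 to 500.35, and 0 pairs of arrays held identical values. A pseudocount of 12.1, the 10th percentile of all intensities, was added before log2, and arrays were then quantile normalized, so fold changes understate those of dim probe sets. The 66 controls and the probe sets under the 40th percentile of mean value were left out. Of all probe sets 10855 had 1 platform gene symbol, 396 several and 1193 no entry. Of the probe sets with several, 0 held a Dusp symbol. limma 3.58.1 (R 4.3.3) fitted all tests, with eBayes following the intensity and Benjamini-Hochberg adjustment over all 7453 probe sets at 0.05, from a fit of the 9 time means or, for slope and rhythm, a line with cosine and sine terms of 24 h on the 24 arrays from 6 h. The number of arrays limits the precision. The labels call the experiments biological replicates. Deviations of arrays of the same experiment correlated in every pair (r from 0.43 to 0.64, 0.35 to 0.60 and 0.14 to 0.48 in experiments 1 to 3), so the numbers pair the samples. Every Dusp probe set was named. Of pathway lists, each gene was represented by its brightest tested probe set, and called members of largest change or the one of smallest p were named. Promoters came from the RefSeq table of GRCm38.p6. The code was tested on simulated data. The members and lists were chosen with earlier results of these data known.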

Additional observations from a re-analysis of the deposited data

How the results depend on the processing

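With the experiment as a replicate block, 4 Dusp probe sets varied over the 9 time points in place of 1, and 1 in place of 0 differed at 48 h from 0 h. Without the filter on dim probe sets, 0 in place of 2 fell at 6 h and 1 in place of 2 differed at 48 h from 6 h. Without the intensity trend in eBayes 1 fell at 6 h. When each experiment was left out in turn, the number called was 0 to 1 over the course, 0 at 6 h in each case, 0 to 2 at 48 h against 6 h and 1 to 4 for the slope. The scaling as deposited, arrays centred on the median, a pseudocount of 50 and leaving out the 18 h and 30 h arrays of experiment 1 kept each of these counts where they were run. No direction turned under any of these alternatives for a called gene. The cause of the lost calls was not tested. Leaving out an experiment lowered the number of arrays, and leaving out the filter raised the number of probe sets tested. Calls at 6 h lay close to the threshold in the fit without the block. With the block the adjusted p by limma was 0.00273 for Dusp1 and 0.00428 for Dusp6. Signal over background was not measured, which limits what the 6 dim probe sets can show.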
